A study of Mus musculus with 4 samples.

Results

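The non-collagen matrix genes of cartilage were followed across skin libraries of a mouse model of atopic dermatitis. They are Cytl1, Chad, Acan, Hapln1, Comp, Matn3 and Matn1, 7 genes of the 23203 gene symbols used, taken by symbol from the deposited tables. They were selected on their deposited log2 values in these same libraries, as transcripts that could mark ear tissue in a skin sample, so their levels are a description with no test. All 7 symbols were in the tables.

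Adult C57BL/6 skin was sequenced, with 1 library in each of 4 groups. KO HDM was skin labelled Egr1 knockout (Egr1-/-), treated with the detergent sodium dodecyl sulfate (SDS), which opens the barrier, and a cream of house dust mite (HDM) extract, the allergen. WT HDM was wild-type skin treated likewise. KO naive was labelled Egr1 knockout and WT naive wild type, both with SDS alone. All 4 groups thus carry SDS in their treatment label. Shaved skin of ear and neck and both ears were treated 2 times a week for 3 weeks, with 100 mg of cream in the HDM groups. The labels give the tissue only as skin and do not say how much of it came from the ear. They do not describe the Egr1 allele or how many animals a library held.

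Cartilage is a tissue of chondrocytes in a matrix of fibrillar collagen and proteoglycan. Aggrecan, the main proteoglycan, binds hyaluronan, and link protein holds them together. Smaller proteins such as chondroadherin, cartilage oligomeric matrix protein and the matrilins join collagen to the other components. The mouse auricle is skin on both sides of a thin cartilage plate, while the dermis of the neck has no cartilage.

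The libraries were made from 3′ ends of polyadenylated RNA and held between 9428480 and 10108762 reads, as recovered from the deposited log2 values. With 1 library per group, no difference between conditions has a replicate check, and each compares 2 libraries. Ratios have exact 95% intervals that cover counting error only, since each group had 1 library. Reads without molecular identifiers are not independent molecules, so the intervals can be too narrow even for that error. Where a gene had 0 reads, the limit used was 3 reads. Egr1 was not lower in the libraries labelled KO, with 3494 reads in KO HDM and 1174 in WT HDM, and 3159 in KO naive and 1966 in WT naive skin; 3′ tags can lie outside a deleted part, so this checks no label. Xist separated the treatments, with 2433 and 2195 reads in the KO and WT HDM libraries and 40 and 10 in the KO and WT naive libraries. The Y-linked gene Ddx3y was the reverse, with 1 and 1 reads in the KO and WT HDM libraries and 2430 and 1925 in the KO and WT naive libraries. HDM treatment and the sex these genes mark, female in the HDM and male in the naive libraries, therefore cannot be told apart. The keratin gene Krt5 of basal epidermis was high in all 4, at log2 values between 13.95 and 16.50. Its level was higher with HDM than without, 3.12-fold in WT skin (3.08 to 3.17) and 4.88-fold in KO skin (4.80 to 4.96). The part of this difference in the cartilage values was not tested. In KO naive, 336 genes lacked any read although every other library held at least 50 reads of each; KO HDM, WT HDM and WT naive had 4, 0 and 5 such genes. In each comparison the labelled genotype or treatment and the piece of skin sampled cannot be told apart.

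Promoters are shown for the 3 genes with the most reads, which were lowest in the same library. The sequences are from RefSeq (GRCm38.p6), 250 bases before to 50 after the RefSeq start, which for Acan and Hapln1 is not the GENCODE start given with the values, 5′ to 3′ on the plus strand. Capitals mark every match, on either strand, to the GC box letters GGGCGG. They also mark, again on both strands, every match to the letters of the TATA box, which are TATAAA.
Cytl1, chr5:37735269-37735568: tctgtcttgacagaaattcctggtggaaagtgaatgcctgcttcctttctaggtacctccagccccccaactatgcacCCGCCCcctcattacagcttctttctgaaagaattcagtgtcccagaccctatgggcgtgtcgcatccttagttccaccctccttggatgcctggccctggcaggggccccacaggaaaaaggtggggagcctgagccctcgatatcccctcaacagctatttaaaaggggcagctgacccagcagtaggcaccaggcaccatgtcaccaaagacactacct
Chad, chr11:94564797-94565096: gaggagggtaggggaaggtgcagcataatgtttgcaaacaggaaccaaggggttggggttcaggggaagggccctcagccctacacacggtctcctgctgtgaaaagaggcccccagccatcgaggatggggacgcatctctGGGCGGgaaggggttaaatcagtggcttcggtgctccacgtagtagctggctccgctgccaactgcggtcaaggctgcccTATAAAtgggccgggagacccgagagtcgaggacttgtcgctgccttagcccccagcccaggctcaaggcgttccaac
Acan, chr7:79052976-79053275: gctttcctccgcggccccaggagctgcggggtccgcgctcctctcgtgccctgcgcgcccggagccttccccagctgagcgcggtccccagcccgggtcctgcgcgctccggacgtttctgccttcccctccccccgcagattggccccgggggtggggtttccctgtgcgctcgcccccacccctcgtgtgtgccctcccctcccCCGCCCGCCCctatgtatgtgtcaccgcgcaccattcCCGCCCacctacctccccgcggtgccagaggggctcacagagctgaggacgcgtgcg

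Of the 7 genes, 6 had a promoter in the RefSeq table, all but Comp. The site letters GCGNGGGCG, to which EGR proteins bind, were in 0 of the 6 windows on either strand, and in 5.55% of all 32851 windows of this length. The SOX-type letters ACAAAG and ACAATG were in 0 of the 6 as well, against 18.7% and 12.6% of all windows. The letters GGGCGG were in 5 of the 6, against 35.7% of all windows. In Acan 2 of its 3 matches overlap, and in Matn3 3 neighbouring matches overlap. TATAAA was in the Chad window alone, 28 bases before the start, against 13.6% of all windows. Absence of these letters says nothing about binding outside the windows or to related sequences. The share of G and C in these promoters ran from 54.3% in Hapln1 and 55.0% in Cytl1 to 74.0% in Acan. The median of all windows was 52.7%, close to the first 2.

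Cytl1 encodes cytokine-like 1, a small secreted protein of chondrocytes (chromosome 5, 37735519 to 37739820, plus strand, GRCm38). It had 26 reads in KO HDM, 11607 in WT HDM, 17121 in KO naive and 17251 in WT naive skin. The deposited log2 values were 4.67 in KO HDM, 13.61 in WT HDM, 13.97 in KO naive and 14.15 in WT naive. It was high in 3 libraries and low in KO HDM, which lay far below the others. The KO HDM library was 512.5-fold lower than WT HDM (349.6 to 785) and 656.5-fold lower than KO naive (447.9 to 1005). In WT skin HDM was 1.46-fold lower than naive (1.42 to 1.49), and KO naive was 1.14-fold lower than WT naive (1.11 to 1.16).

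Chad encodes chondroadherin, a leucine-rich repeat protein that binds collagen and cell-surface integrins (chromosome 11, 94565047 to 94569127, plus strand). It had 1 read in KO HDM, 1651 in WT HDM, 2765 in KO naive and 4805 in WT naive skin. The KO HDM library again stood apart, while the other 3 libraries differed from one another by up to 2.85-fold. Chad was 1896-fold lower in KO HDM than in WT HDM, with an interval of 339.7 to 74910 because it rests on 1 read. Against KO naive it was 2756-fold lower (494.3 to 108900). In WT skin it was 2.85-fold lower with HDM than without (2.70 to 3.02). In naive skin it was 1.96-fold lower in KO than in WT (1.87 to 2.06). Chad lies within Acsf2, an acyl-CoA synthetase gene of the opposite strand that also spans its 3′ end, and the use of strand in counting is not given in the sources used here. Acsf2 had 32 reads in KO HDM, 33 in WT HDM, 78 in KO naive and 188 in WT naive, a small fraction of the Chad reads in the last 3 libraries.

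Acan encodes aggrecan (chromosome 7, 79053483 to 79115099, plus strand). Its reads were 31 in KO HDM, 742 in WT HDM, 1916 in KO naive and 2065 in WT naive skin. The low library was the same as for Cytl1 and Chad. The ratio was smaller, however, with KO HDM 27.5-fold below WT HDM (19.2 to 40.7) and 61.6-fold below KO naive (43.3 to 90.9). In WT skin Acan was 2.73-fold lower with HDM than without (2.51 to 2.97), and KO naive was 1.22-fold below WT naive (1.14 to 1.30).

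Hapln1 encodes link protein, which ties aggrecan to hyaluronan (chromosome 13, 89539796 to 89611652, plus strand). It had 4 reads in KO HDM, 65 in WT HDM, 22 in KO naive and 353 in WT naive skin. Unlike the 3 genes above, it was low in both KO libraries. KO was 18.7-fold below WT with HDM (6.95 to 70.5) and 18.1-fold below WT in naive skin (11.8 to 29.3). HDM was 5.48-fold below naive in KO skin (1.86 to 21.9) and 5.32-fold in WT skin (4.07 to 7.04). Among the 3355 genes with 200 to 500 reads in WT naive, a range set after the values were seen, 2.24% were at least 10-fold lower in KO naive and 1.28% in KO HDM. The part of the unusual number of absent genes in KO naive in this result was not tested.

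Comp encodes cartilage oligomeric matrix protein, which is also made in tendon (chromosome 8, 70373558 to 70382066, plus strand). It had 5 reads in KO HDM, 21 in WT HDM, 156 in KO naive and 45 in WT naive skin. KO naive was the highest library, and KO HDM the lowest. Comp was 4.82-fold lower in KO than in WT with HDM (1.77 to 16.4) but 3.07-fold higher in KO than in WT in naive skin (2.19 to 4.38). HDM was 31.1-fold below naive in KO skin (13.1 to 97.1) and 2.10-fold in WT skin (1.23 to 3.71). Of the 4 measured tendon genes, Thbs4 and Tnmd were highest in KO naive too, while Scx and Fibin were not. Thbs4 had 122 reads in KO HDM, 748 in WT HDM, 1131 in KO naive and 540 in WT naive, and Tnmd had 56 in KO HDM, 101 in WT HDM, 427 in KO naive and 95 in WT naive. Scx had 67 reads in KO HDM, 55 in WT HDM, 37 in KO naive and 43 in WT naive, and Fibin had 66 in KO HDM, 42 in WT HDM, 50 in KO naive and 111 in WT naive. The part of tendon in the Comp values was not tested.

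Matn3 and Matn1 encode matrilins, which form filaments between matrix components. Matn3 (chromosome 12, 8947929 to 8972028, plus strand) had 0 reads in KO HDM, WT HDM and KO naive and 10 in WT naive skin. In WT skin HDM was thus at least 3.27-fold below naive, and KO naive at least 3.76-fold below WT naive, with 0 taken as up to 3 reads per library. Of the 1796 genes with 5 to 20 reads in WT naive, 66.3% were at 0 in KO naive, 18.6% in KO HDM and 16.1% in WT HDM, so such a loss in KO naive was common. Matn1 (chromosome 4, 130944385 to 130955475, plus strand), known from tracheal and nasal cartilage, had 0 reads in all 4 libraries. The limit for 0 reads is 0.297 reads per 1000000 in KO HDM and 0.318 in WT HDM, the lowest and the highest of the 4 libraries.

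**Figure D1:**
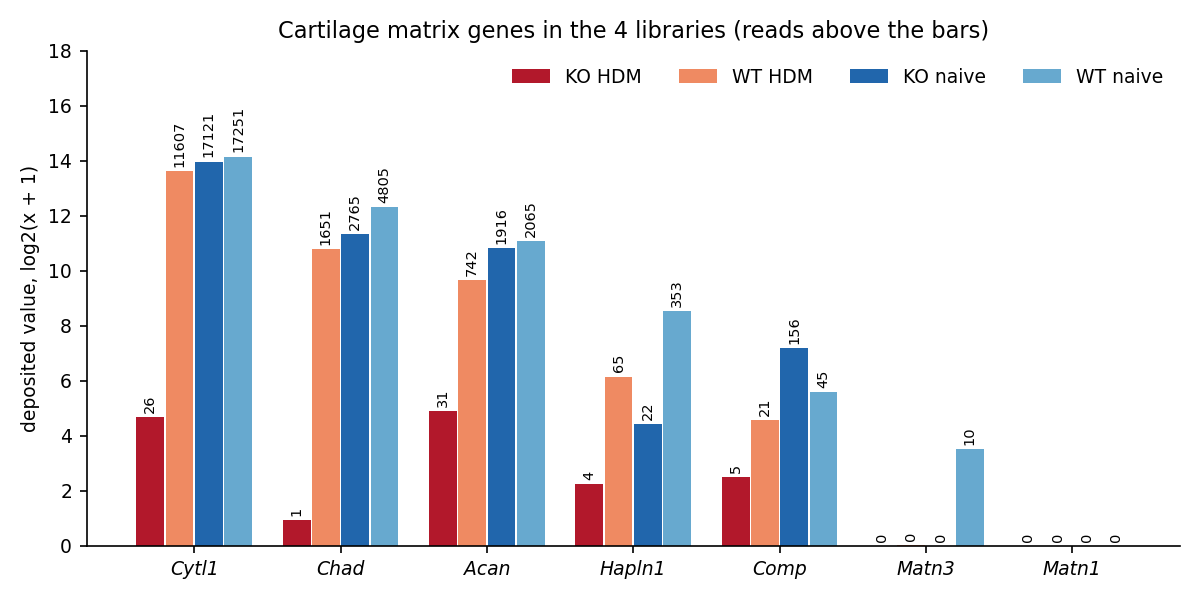
Deposited log2 value of each of the 7 genes (bars, vertical axis from 0) in KO HDM, WT HDM, KO naive and WT naive skin, 1 library per bar, with the recovered reads above it. Cytl1, Chad and Acan are low in KO HDM alone, Hapln1 in KO HDM and KO naive, and Matn1 is at 0 throughout.

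Together the 7 genes took 67 reads in KO HDM, 14086 in WT HDM, 21980 in KO naive and 24529 in WT naive skin. That was 6.63 reads per 1000000 in KO HDM, 1494 in WT HDM, 2214 in KO naive and 2557 in WT naive. Cytl1 alone made up 82.4% of this sum in WT HDM, 77.9% in KO naive and 70.3% in WT naive, so the sum mostly follows Cytl1. In KO HDM, Acan led with 46.3% and Cytl1 followed with 38.8%. In bulk tissue, fewer chondrocytes and less RNA per chondrocyte cannot be told apart.

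KO against WT with HDM asked how the knockout label bears on treated skin. A log2 difference of 1 or more, 2-fold, was used as the size rule. Lower by this rule were 5 of the 7 genes and higher were 0. Over all 11600 genes whose mean over the 4 libraries exceeded 5.11, the median of all genes, 4.66% were lower and 3.06% higher. Over all symbols without this filter, 9.87% were lower and 6.86% higher. The median difference of the 7 genes was -3.91, and that of the measured genes -0.01. Only 4 of the 7 genes, Cytl1, Chad, Acan and Hapln1, lay above the filter. From the lowest difference upward among the 11600 genes, Chad ranked 2, Cytl1 3, Acan 19 and Hapln1 29. The choice of the genes used these values, so nothing is read from the count.

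HDM against naive set allergen-treated skin beside skin with SDS alone in each genotype, with sex differing as well. In KO skin, 5 of the 7 genes were lower by 2-fold or more and 0 higher, with a median of -4.70; 18.2% of the measured genes were lower and 21.7% higher (12.4% and 25.6% without the filter), and their median was 0.06. In WT skin, 5 of the 7 were lower and 0 higher, with a median of -1.45, while 12.7% of the measured genes were lower and 14.5% higher (13.1% and 17.2% without the filter), and their median was 0.03. The choice of the genes used these values too. This comparison in KO skin and KO against WT with HDM share the KO HDM library. The genes were not the same, since Cytl1 was past 2-fold in KO skin only and Matn3 in WT skin only. The HDM difference in KO skin minus that in WT skin was -8.89 for Chad, -8.76 for Cytl1, -4.45 for Acan and -3.66 for Comp on the log2 scale. It was 0.21 for Hapln1. For Matn3 it was 3.49, in the other direction, which rests on 10 reads in WT naive and 0 in each other library. With 1 library per group these differences of differences were not tested.

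KO against WT in naive skin asked for the effect of the label before the allergen. Of the 7 genes, 2 were lower by 2-fold or more (Hapln1 and Matn3), 1 was higher (Comp) and 4 differed by less. Over the measured genes 17.1% were lower and 13.6% higher (21.9% and 9.66% without the filter). The median of the 7 was -0.28 and that of the measured genes -0.03. Cytl1 and Acan, at log2 differences of -0.19 and -0.28, were the closest to equal of the genes with reads in both naive libraries.

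**Figure D2:**
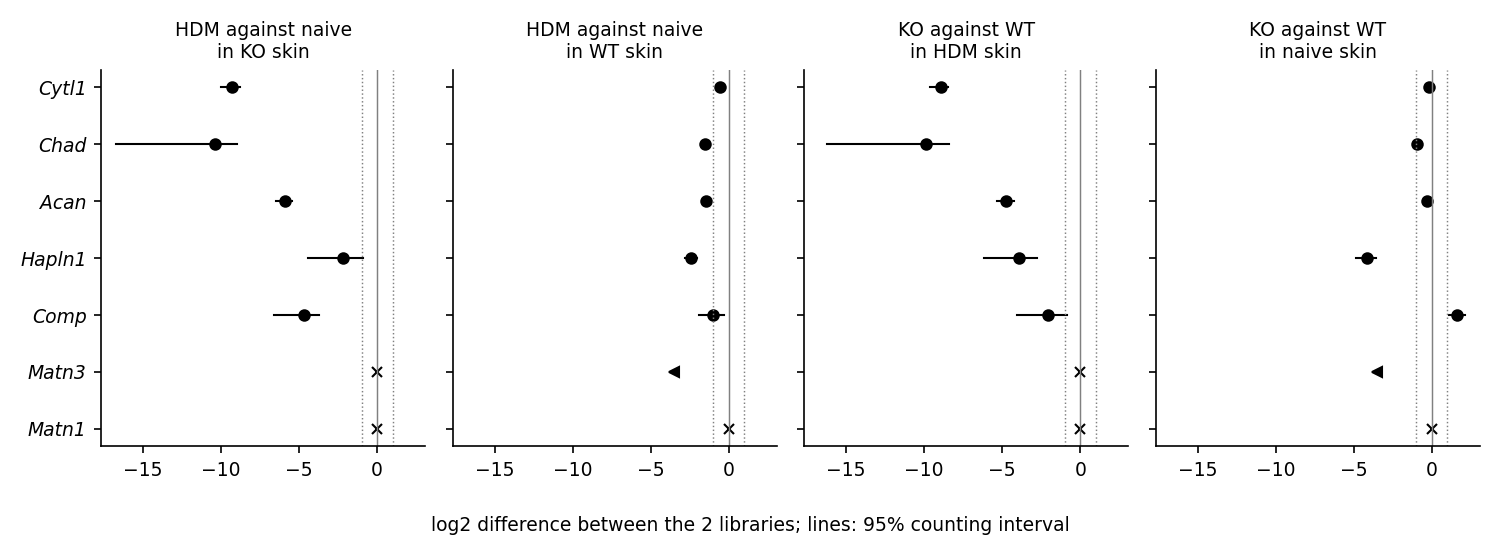
Log2 difference (horizontal axis) for each of the 7 genes in the 4 comparisons, first group minus second, with lines for the 95% counting interval and dotted lines at 2-fold. Triangles mark a group at 0 reads and crosses mark genes at or under 3 reads in both libraries; Cytl1 and Chad lie near -9 to -10 in the 2 panels that involve KO HDM and near 0 to -2 in the others.

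Scaling a library by 1 constant does not change the mix of its transcripts, but the normalization of the deposited values is not given. Cytl1 had 0.839 reads per Acan read in KO HDM (0.478 to 1.46), 15.6 in WT HDM (14.5 to 16.9), 8.94 in KO naive (8.52 to 9.37) and 8.35 in WT naive (7.98 to 8.75). Chad had 0.0323 in KO HDM (0.000792 to 0.194), 2.23 in WT HDM (2.04 to 2.43), 1.44 in KO naive (1.36 to 1.53) and 2.33 in WT naive (2.21 to 2.45). Relative to Acan, KO HDM thus held fewer Cytl1 and Chad reads than the other 3 libraries, beyond counting error. The tissue that these few reads in KO HDM came from was not tested. Comp had 0.161 reads per Acan read in KO HDM (0.0490 to 0.418), 0.0283 in WT HDM (0.0174 to 0.0436), 0.0814 in KO naive (0.0687 to 0.0959) and 0.0218 in WT naive (0.0158 to 0.0293). Hapln1 had 0.129 in KO HDM (0.0331 to 0.365), 0.0876 in WT HDM (0.0669 to 0.113), 0.0115 in KO naive (0.00718 to 0.0174) and 0.171 in WT naive (0.152 to 0.192). Between WT HDM and WT naive the Chad-to-Acan intervals overlapped, while the Cytl1-to-Acan intervals did not.

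**Figure D3:**
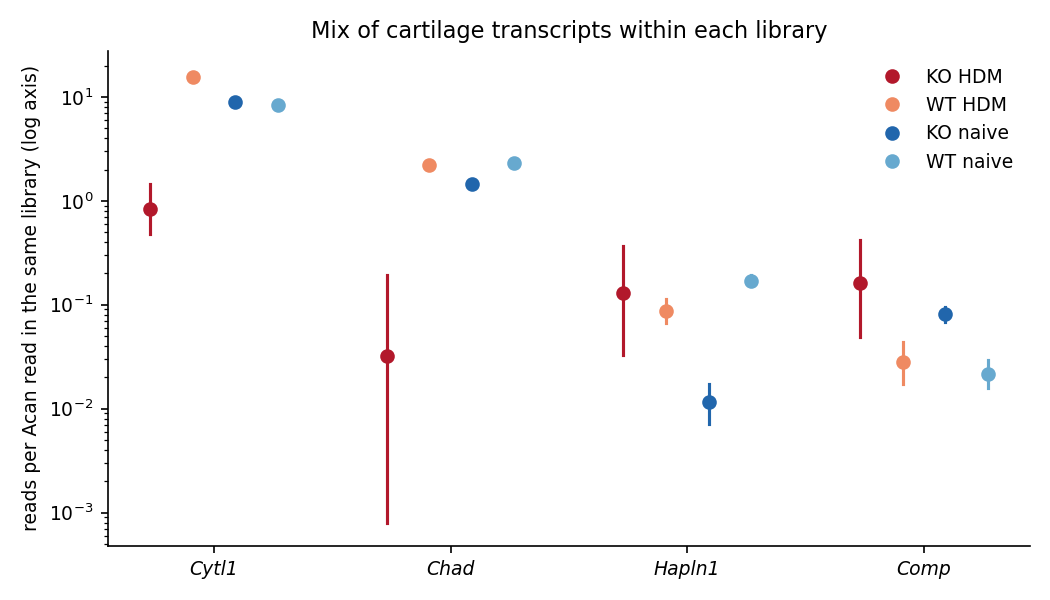
Reads of Cytl1, Chad, Hapln1 and Comp per Acan read within each library (log axis), points for the ratio and lines for its 95% counting interval, in KO HDM, WT HDM, KO naive and WT naive skin. Cytl1 and Chad fall far lower in KO HDM, at 0.839 and 0.0323, and Hapln1 is lowest in KO naive, at 0.0115.

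Other cartilage genes were described from lists chosen with earlier results known. Cartilage collagens were lower in KO than in WT with HDM in 5 of 6 measured genes and higher in 0, with a median of -4.37; 4.66% of all measured genes were lower. Col10a1, the collagen of hypertrophic chondrocytes, had 2 reads in KO HDM, 221 in WT HDM, 713 in KO naive and 662 in WT naive. Col9a3, a chain of a collagen that coats fibrils, had 14 in KO HDM, 132 in WT HDM, 1421 in KO naive and 1059 in WT naive. Col27a1 had 140 reads in KO HDM and 328 in WT HDM, and Col11a1 149 and 248. These 2 genes kept more of their reads in KO HDM than Col10a1 did. Col2a1, the main fibrillar collagen of cartilage, lay below the filter and is named after its values were seen. It had 0 reads in KO HDM, 143 in WT HDM, 16 in KO naive and 188 in WT naive. Like Hapln1, it was low in both KO libraries.

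Other matrix and secreted proteins of cartilage were lower in KO HDM than in WT HDM in 9 of 14 measured genes and higher in 0 (median -1.61). Over all measured genes 4.66% were lower and 3.06% higher. Of the 4 with the highest levels, 3 differed by less than 2-fold. Cilp, of the intermediate cartilage layer, had 797 reads in KO HDM and 840 in WT HDM, the cell-surface proteoglycan gene Sdc4 1147 and 1173, and the lubricin gene Prg4 858 and 1038. Prelp, a leucine-rich repeat proteoglycan gene, had 265 in KO HDM and 574 in WT HDM. Chondrocyte regulators had a median of -0.03, with 1 of 7 lower and 0 higher. Sox9, the transcription factor gene of chondrocytes and also of hair follicle stem cells, had 5518 reads in KO HDM, 4910 in WT HDM, 3433 in KO naive and 6366 in WT naive. Its level in KO HDM was within counting error of that in WT HDM (1.02-fold, 0.983 to 1.06). Fgfr3 was the 1 regulator past 2-fold, with 671 reads in KO HDM and 1355 in WT HDM.

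The same lists in HDM against naive skin gave 6 of 6 collagens, 12 of 14 matrix proteins and 4 of 7 regulators lower in KO skin, with medians of -7.08, -4.24 and -1.12, where 18.2% of all measured genes were lower and 21.7% higher. In WT skin 5 of 6 collagens, 10 of 14 matrix proteins and 3 of 7 regulators were lower, with medians of -2.77, -1.57 and -0.62, where 12.7% of all measured genes were lower and 14.5% higher. One of the matrix proteins was higher in KO skin and no measured gene of the 3 lists in WT skin. Between the naive libraries, KO against WT, the medians were -0.07, 0.32 and 0.16.

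Lists of neighbouring tissues moved by other amounts in KO against WT with HDM, where 4.66% of all measured genes were lower and 3.06% higher. Skeletal muscle genes had a median of 0.44, with 0 of 12 past 2-fold, and the actin gene Acta1 had 14828 reads in KO HDM and 9253 in WT HDM. Adipocyte genes had a median of 0.95, with 4 of 9 higher, among them the fatty acid binding protein gene Fabp4 with 6869 reads in KO HDM and 2762 in WT HDM. Dermal fibroblast genes had a median of -0.34, with 1 of 12 lower and 0 higher. Col1a1 had 19880 reads in KO HDM and 16576 in WT HDM, a log2 difference of 0.063. Dcn, Col1a2 and Col3a1, the next genes of the list by level, were lower in KO HDM, at -0.838, -0.395 and -0.954. Elastic fibre genes had a median of 0.01, with 1 of 13 in each direction. The elastin gene Eln, a member of both lists, was the 1 lower gene of each, with 545 reads in KO HDM and 1531 in WT HDM. Tendon genes had 2 of 4 lower (median -0.48) and bone genes 1 of 2 (median -0.91). The bone gene Dlx5 had 40 reads in KO HDM and 79 in WT HDM. Schwann cell genes had a median of 0.23, with 1 of 8 in each direction. Their 1 lower gene was S100b, which chondrocytes also express, with 81 reads in KO HDM, 994 in WT HDM, 8109 in KO naive and 4805 in WT naive.

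HDM against naive gave counts in other tissues too. In KO skin, where 18.2% of all measured genes were lower and 21.7% higher, 8 of 12 dermal fibroblast genes were lower and 0 higher (median -1.85). There 6 of 13 elastic fibre genes were lower and 0 higher (-0.87), 5 of 9 adipocyte genes lower and 1 higher (-1.84), and 4 of 8 Schwann cell genes lower and 0 higher (-1.40). In WT skin, where 12.7% of all measured genes were lower and 14.5% higher, 5 of 12 dermal fibroblast genes were lower and 1 higher (median -0.73). There 3 of 13 elastic fibre genes were lower and 1 higher (-0.11), 3 of 9 adipocyte genes lower and 0 higher (-0.88), and 8 of 8 Schwann cell genes lower (-2.35). Of 12 skeletal muscle genes, 4 were lower and 1 higher in KO skin (-0.58), and 3 lower and 1 higher in WT skin (-0.26). The part of these tissues in the HDM differences of the cartilage genes was not tested.

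**Figure D4:**
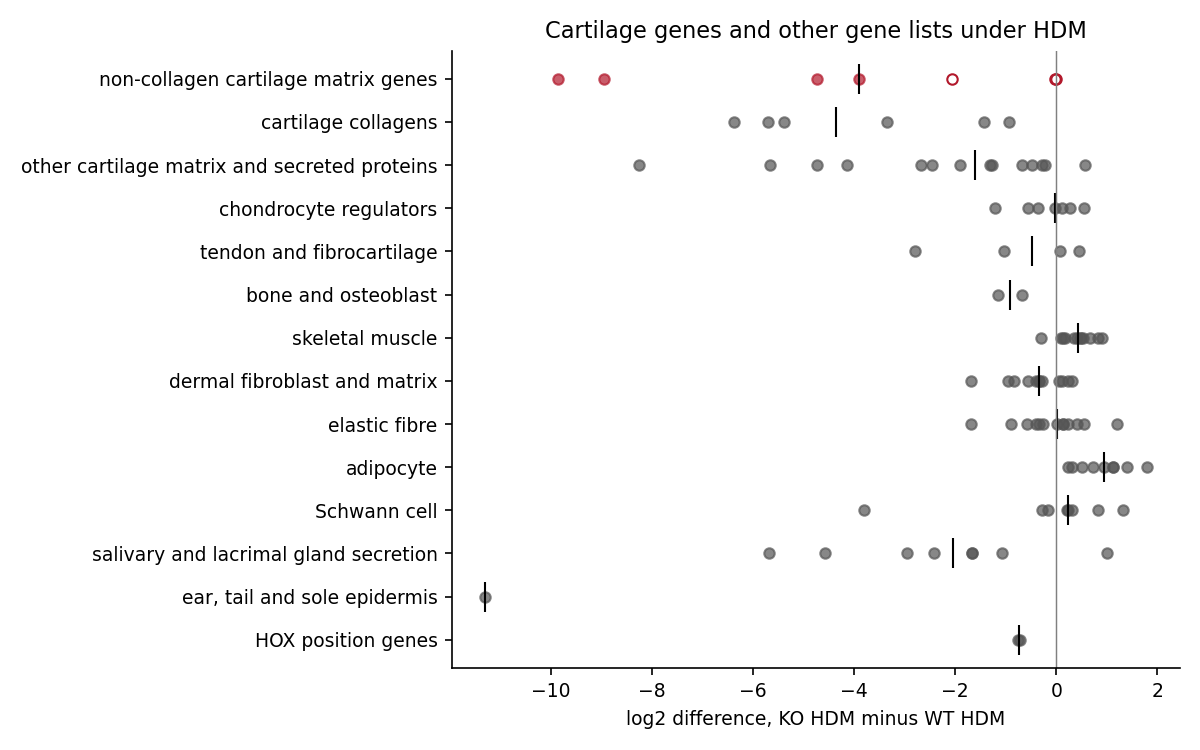
Log2 difference, KO HDM minus WT HDM (horizontal axis), of each gene (points) in the cartilage set and the 13 lists, with a bar at the median. Open points are the 3 cartilage genes below the low-value filter. The bar of the cartilage set is over all 7 genes, open points included, and those of the lists are over genes above the filter only. Taken so, the medians of the cartilage set and the collagens are the lowest apart from Krt2, at -3.91 and -4.37. Those of the muscle, dermal and fat genes are 0.44, -0.34 and 0.95.

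As markers of where the skin came from, Krt2 and the HOX genes were set beside the cartilage genes. Krt2 encodes a suprabasal keratin typical of mouse ear, tail and sole skin. It had 1 read in KO HDM, 4493 in WT HDM, 93557 in KO naive and 61039 in WT naive. Its low library was the one in which Cytl1, Chad and Acan were low. Both other genes of that list, Krt76 and Krt9, had at most 56 reads in any library. The suprabasal keratin gene Krt10, outside that list, was lowest in KO HDM too. It had 4138 reads in KO HDM, 21994 in WT HDM, 9315 in KO naive and 11155 in WT naive. Of 15 HOX genes, which mark position along the body axis, 8 were higher by 2-fold or more and 0 lower in KO HDM than in WT HDM, against 6.86% of all symbols higher without a filter. Their median was 1.12 without the filter. Only 2 of the 15 lay above the filter, with 0 past 2-fold and a median of -0.74, so the direction rests on genes of low level. Summed HOX reads were 791 in KO HDM, 289 in WT HDM, 291 in KO naive and 345 in WT naive. Hoxa2, needed for the mouse outer ear, had 28 reads in KO HDM, 42 in WT HDM, 158 in KO naive and 134 in WT naive. Hoxc8, a gene of the trunk named after its values were seen, had 111 reads in KO HDM, 4 in WT HDM and 0 in both naive libraries. The amount of ear in each sample is not given in the labels, and its part in the cartilage values was not tested.

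Secretory genes of salivary and lacrimal gland, taken as a sum, were lowest in KO HDM as well. This sum ordered the libraries as the summed cartilage genes did, with other spacing. Their summed reads were 160 in KO HDM, 690 in WT HDM, 82184 in KO naive and 695202 in WT naive. WT HDM was thus low in gland transcripts while it was high in Cytl1. Bpifa2 had 4 reads in KO HDM, 104 in WT HDM, 44935 in KO naive and 336318 in WT naive. Smr3a had 0 in KO HDM, 47 in WT HDM, 27622 in KO naive and 248945 in WT naive. In KO against WT with HDM, 7 of 8 measured genes of the list were lower and 1 higher, with a median of -2.04. The 1 higher gene was Amy1, with 84 reads in KO HDM, 36 in WT HDM, 6550 in KO naive and 66702 in WT naive. Amy1 was 2.03-fold higher in KO HDM than in WT HDM (1.36 to 3.09). It held 84 of the 160 summed reads of KO HDM. Over all measured genes 4.66% were lower and 3.06% higher.

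Among all measured genes, those closest in pattern were found by the largest deviation, over the 4 libraries, from the mean log2 profile of Cytl1, Chad, Acan and Hapln1, each centred on its own mean. The 10 closest were Tlx1, Col10a1, 1500015O10Rik (Ecrg4), Ppp1r1b, Col9a2, Pla2g5, Mfi2 (Meltf), Lect1 (Cnmd), 3110079O15Rik (Snorc) and Msmp, with deviations between 0.75 and 1.40. Tlx1, a homeobox transcription factor gene, had 0 reads in KO HDM, 234 in WT HDM, 335 in KO naive and 437 in WT naive. Snorc, which encodes a chondrocyte proteoglycan, had 0 in KO HDM, 285 in WT HDM, 802 in KO naive and 914 in WT naive. It was the gene closest to Chad, at a deviation of 0.97, and Tlx1 the closest to Cytl1, at 0.65. Lect1 encodes chondromodulin, an inhibitor of vessel growth in cartilage, and had 11 reads in KO HDM, 183 in WT HDM, 966 in KO naive and 745 in WT naive. Mfi2, which encodes melanotransferrin, had 0 in KO HDM, 216 in WT HDM, 731 in KO naive and 1151 in WT naive. The likeness rests on 4 libraries and mostly on KO HDM.

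**Figure D5:**
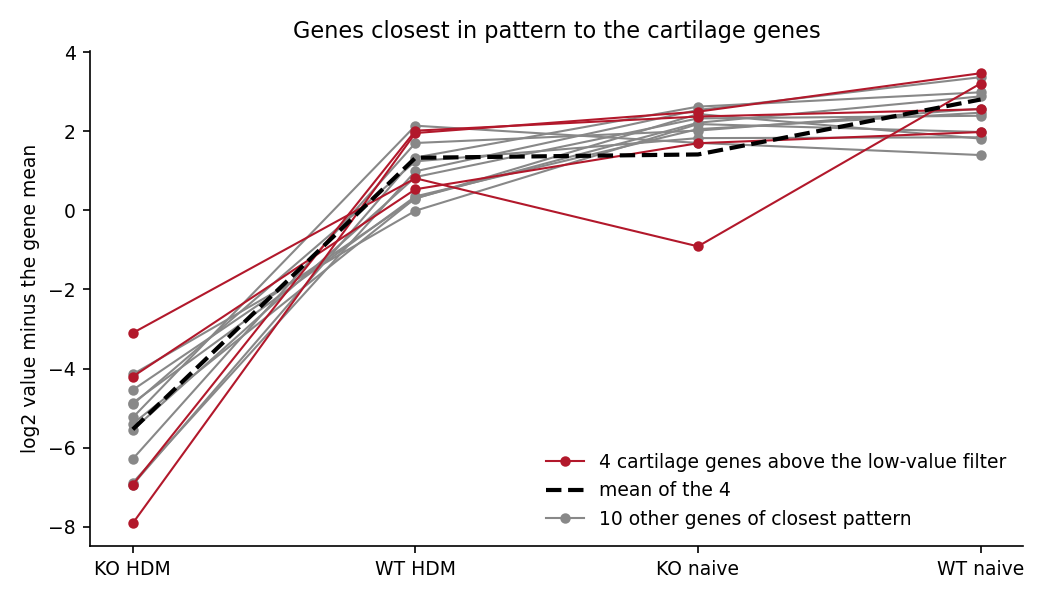
Log2 value minus the gene's mean over the 4 libraries (vertical axis) in KO HDM, WT HDM, KO naive and WT naive skin, for Cytl1, Chad, Acan and Hapln1, their mean (dashed) and the 10 other genes closest to that mean. All lines are lowest in KO HDM, and Hapln1 is the line far below the others in KO naive.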

How the data were processed

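Per the labels' protocols, 500 ng of Trizol-extracted total RNA went into each QuantSeq library. The authors deposited 1 log2 value per gene symbol and library. The submitters' processing notes list Bowtie2, bedtools and mm10 without roles; the normalization is not given in the sources used here. Once taken off the log2 scale and reduced by 1, most values lay on whole multiples of 1 number per library. This was 0.939 in KO HDM, 1.08 in WT HDM, 0.936 in KO naive and 1.06 in WT naive. The deposited log2 values were thus read as a scaled read number plus 1, apart from those under 0.5 read. Reads were recovered by division and rounding. Of values up to 200 reads, 98.8% were whole within 0.1 read in KO HDM and in WT HDM, 95.7% in KO naive and 99.1% in WT naive; larger numbers are approximate. Values above 0 but under 0.5 read, 1121 in WT HDM and 2109 in WT naive, were taken as 0 reads. A scaled whole read number does not give such values, and KO HDM and KO naive had 0 of them. Their origin was not tested.

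The 35 symbols on more than 1 line (79 lines) were left out. Differences are of deposited log2 values. Folds are of reads times these multiples, with Clopper-Pearson intervals conditional on the summed reads. With 1 library per group and genes chosen on these values, no test was made. The recovery was checked on simulated data. Genes outside the set were named as up to 4 per list with the highest mean, the 10 (5 for Chad and for Cytl1) closest in pattern, and single genes of the libraries; other choices are marked. The genes and lists were chosen with earlier results of these data known. Coordinates are from GENCODE vM21 (GRCm38, the assembly of mm10). Scripts used matplotlib 3.10.9, scipy 1.17.1, pandas 2.3.3 and numpy 2.4.6 under Python 3.11.15. Alternatives were other scalings, pseudocounts, filters and the treatment of 0 reads.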

Additional observations from a re-analysis of the deposited data

Results flagged for a closer look

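Opposite directions in libraries of both genotypes or of both treatments were looked for among the cartilage genes and the other named genes, where both counting intervals excluded a ratio of 1. With 1 library per group none of these differences was tested. Of the 7 cartilage genes this was so for Comp, at a log2 difference of -2.06 for KO against WT with HDM and 1.60 in naive skin.

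Genes lower in KO than in WT with HDM, but higher in naive skin, were Krt2 (-11.30 and 0.44), Col9a1 (-5.39 and 0.28), Pla2g5 (-4.83 and 0.62), Lect1 (-4.13 and 0.20), S100b (-3.80 and 0.58) and Col9a3 (-3.34 and 0.25). The same held for Thbs4 (-2.80 and 0.89), Eln (-1.69 and 0.62), Prelp (-1.31 and 0.62), Tnmd (-1.04 and 1.98), Cilp (-0.28 and 0.47) and Sdc4 (-0.23 and 1.43).

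For HDM against naive, opposite directions in KO and WT skin were seen in Msmp (-6.94 in KO and 0.74 in WT), Thbs4 (-3.20 and 0.50), Sdc4 (-1.25 and 0.42), Sox9 (0.69 and -0.34) and Egr1 (0.15 and -0.71).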

How the results depend on the processing

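No paired analysis was possible because each group held 1 library, and for the same reason no replicate could be left out. Over 6 alternatives (3 scalings, pseudocounts of 5 and 0.5, and counts below 3 reads set to 3) the numbers of the 7 genes past 2-fold stayed within 1.5 times the reported ones in all 4 comparisons. With the genes restricted to those above the median of all genes, the number lower was 3 for HDM against naive in WT skin; KO against WT in naive skin had 1 lower and 0 higher. Above the 75th percentile it was 2 for HDM against naive in WT skin, 3 in KO skin, 0 lower and 0 higher for KO against WT in naive skin, and 3 lower for KO against WT with HDM; fewer genes entered by construction. KO against WT with HDM ranged from -10.30 to -7.32 for Chad, from -8.97 to -8.43 for Cytl1, from -4.76 to -4.29 for Acan, from -4.06 to -2.50 for Hapln1 and for the median of the 7, and from -2.17 to -1.11 for Comp. HDM against naive in KO skin ranged from -4.83 to -3.48 for Comp and the median of the 7, and from -2.32 to -1.20 for Hapln1. HDM against naive in WT skin ranged from -1.05 to -0.82 for Comp. Scaling to library totals moved the median of the measured genes by 0.12 for KO against WT in naive skin, where Cytl1 ranged from -0.19 to -0.06. Without the filter, list medians changed sign for bone genes in KO against WT in naive skin (-0.22, against 1.23 with it) and for HOX genes in KO against WT with HDM (1.12 against -0.74), HDM against naive in KO skin (3.10 against -0.49) and in WT skin (0.03 against -0.96). For HDM against naive it became 0.0 for the ear, tail and sole keratins in WT skin and for chondrocyte regulators in KO skin (-1.12 with the filter). Depth limits Chad, Hapln1, Comp, Matn3 and Matn1, which had 5 reads or fewer in KO HDM.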
